A study of Mus musculus with 6 samples.

Results

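The 7 long noncoding RNAs (lncRNAs) Rmst, Sox2ot, Pantr1, Miat, Malat1, Neat1 and Gas5 were taken by gene name from a table of 54532 mouse genes, as RNAs tied to neural development or known as abundant in the nucleus. All 7 were among the 16078 genes that passed the filter on low counts and were tested. RNA was sequenced from P19 cells, an embryonal carcinoma line of the mouse that turns neural under retinoic acid. Of the 6 libraries, 3 came from cells given a negative control (NC) siRNA and 3 from cells given Baf45d siRNA, both by transient lipid transfection, and every library followed 5 days of all-trans retinoic acid. Baf45d is another name of Dpf2, which encodes a part of BAF, a complex that remodels chromatin. The series asks what this subunit does in early neural differentiation and with SMAD signaling. There were therefore no libraries without retinoic acid and no untransfected cells, and a Gapdh siRNA that the protocol also names had no library here. Samples within a group are biological replicates by their labels, which do not say whether they came from separate cultures, so the tests measure only the spread between these samples.

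LncRNAs are transcripts that code for no known protein, and many act in the nucleus on chromatin, transcription or splicing. Rmst and Sox2ot belong to the surroundings of SOX2, a transcription factor of neural progenitors. Human RMST is known to bind SOX2 in neurogenesis, and Sox2ot is the long host transcript within which the Sox2 gene lies. Pantr1 lies beside the gene of Pou3f3 (Brn1), a transcription factor of cortical neurons and their progenitors, and is named for that place. Miat, or Gomafu, is a nuclear RNA of neural cells that carries repeats bound by the splicing factor SF1. Malat1 gathers in nuclear speckles beside splicing factors, and Neat1 is the scaffold around which paraspeckles form. Gas5 is the spliced host of a set of small nucleolar RNAs (snoRNAs), is degraded by nonsense-mediated decay, and can bind the glucocorticoid receptor.

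The sequences that set these RNAs apart are shown 5′ to 3′ on the sense strand as DNA letters, from GENCODE M21 transcripts on GRCm38. In Miat the capitals mark ACTAAC, the core of the repeat, which is also part of the branch point of introns. In Malat1 and Neat1 they mark the 3 longest runs of letters that their 3′ regions share, which hold the U-rich and A-rich stretches known to fold into a triple helix that protects the ends of the mature RNAs. The stretch of Neat1 reaches the annotated end of the gene, whereas that of Malat1 stops short of the annotated end. In Gas5 they mark a pyrimidine start, which is typical of RNAs controlled with the translation machinery. The Gas5 transcript shown was picked from 25 annotated ones because it opens with CTTTC. That it has this start therefore follows from the choice.
Miat, first repeat group, chr5:112217319-112217450, minus strand: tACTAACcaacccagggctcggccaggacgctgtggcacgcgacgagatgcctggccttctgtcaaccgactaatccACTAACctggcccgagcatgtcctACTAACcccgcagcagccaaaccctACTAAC
Miat, second repeat group, chr5:112216762-112216868, minus strand: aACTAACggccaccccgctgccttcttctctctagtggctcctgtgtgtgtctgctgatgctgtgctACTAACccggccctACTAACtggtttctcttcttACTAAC
Malat1, 3′ element, chr19:5795982-5796065, minus strand: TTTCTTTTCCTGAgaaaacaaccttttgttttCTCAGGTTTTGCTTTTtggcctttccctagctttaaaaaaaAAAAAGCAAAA
Neat1, 3′ element, chr19:5824708-5824797, minus strand: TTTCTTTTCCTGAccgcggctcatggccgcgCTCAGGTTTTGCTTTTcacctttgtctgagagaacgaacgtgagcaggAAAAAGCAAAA
Gas5, transcript start, chr1:161035166-161035194, plus strand: CTTTCggagctgtgcggcattctgagcag

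The sense strand of the longest Miat transcript, 9163 bases, held ACTAAC 11 times, 6 of them preceded by T. The background was 1163 genes, Miat included, with any annotated transcript within 20% of that length. In such a transcript 63.0% held the motif at least once, and the median of the genes other than Miat was 1 copy. Miat was itself 1 of the 2 genes (0.172%) that held 11 copies or more. Neat1 held 4 copies, Pantr1 and Gas5 held 1 each, and Rmst, Sox2ot and Malat1 held none in their longest transcripts. The runs shared by Malat1 and Neat1 were searched on the sense strand of transcripts of 55450 genes, without the opposite strand. TTTCTTTTCCTGA occurred in 0.0379% of genes, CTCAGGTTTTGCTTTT in 0.00361%, which are Malat1 and Neat1 themselves, and AAAAAGCAAAA in 0.678%. The runs do not overlap, and they were read from this pair of genes, so that both hold them follows from the choice. A match of letters is a description and does not show that a site is used.

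The gene models differ in ways that bear on the levels. By the coordinates of the files, which for all 7 genes equal those of GENCODE M21 on GRCm38, Malat1 (chr19:5795690-5802672) and Neat1 (chr19:5824708-5845478) each have a longest transcript of 1 exon that covers the whole gene, 6983 and 20771 bases. Both lie on the minus strand, with 22.0 kb between them. Sox2ot (chr3:34104270-34682619, plus strand) spans 578.4 kb, yet its 18 annotated transcripts reach at most 3486 bases. Rmst (chr10:92071037-92165170, minus strand) spans 94.1 kb with 14 transcripts of up to 2891 bases. Pantr1 (chr1:42590782-42694842, minus strand) spans 104.1 kb with 12 transcripts of up to 2085 bases. Miat (chr5:112213228-112229395, minus strand) spans 16.2 kb with 6 transcripts, and its longest has 7 exons. Gas5 (chr1:161034422-161038539, plus strand) packs 25 transcripts into 4.1 kb.

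The libraries held from 17127876 to 21224822 counts, and genes of at least 5 CPM had a median standard error (SE) of 0.112 in their log2 fold change. CPM here are counts as parts of the library total, scaled by the trimmed mean of M-values (TMM). Together the 7 RNAs took from 0.0588% to 0.0903% of all counts. Mitochondrial transcripts took from 1.52% to 1.85% in 5 libraries and 2.54% in Baf45d replicate 2. Dpf2, the target, stood at 156, 154 and 158 CPM in NC replicates 1 to 3 and at 148, 141 and 147 CPM in Baf45d replicates 1 to 3. All 3 Baf45d libraries were lower, as for 4.3% of all genes tested, and the log2 fold change was -0.10 (SE 0.07), which did not pass (edgeR quasi-likelihood test, Benjamini-Hochberg adjusted p = 0.996). Summed markers were high for neurons (903 to 1375 CPM over 12 genes), for neural progenitors (1598 to 1867 CPM over 10 genes) and for mesenchyme and matrix, given below. For glia they came to between 89.2 and 112 CPM over 8 genes. They were low for pluripotent cells (10.7 to 14.4 CPM over 7 genes, with Zfp42 and Dppa3 at 0) and for endothelium and blood (32.0 to 43.2 CPM over 8 genes, with Ptprc and Hbb-bt at 0). Sums in CPM are not scaled by gene length and the lists differ in size, so they do not rank cell types against each other. The 10 mesenchyme and matrix markers had the highest sums of the cell type lists. They summed to between 1985 and 2353 CPM with NC siRNA and between 1898 and 1980 CPM with Baf45d siRNA. These ranges nearly met, at 1985 and 1980 CPM, and how often sums of like lists do not overlap was not computed.

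Per length of transcript, the 7 RNAs spread over more than 2 orders of magnitude, with Malat1 and Miat far above the rest. Levels between genes are compared in FPKM, fragments scaled by gene length and library depth, as the authors deposited them. Malat1 stood at 56.8 FPKM on average over the 6 libraries, Miat at 30.1, Gas5 at 3.50, Pantr1 at 0.731, Rmst at 0.724, Neat1 at 0.400 and Sox2ot at 0.249. The steps from Malat1 to Miat and from Miat to Gas5 held in every library. Gas5 was likewise above the 4 lowest RNAs in every library. The ranges of Pantr1 and Rmst overlapped, so these neighbours in the order did not differ beyond their spread. Neat1 was above Rmst in NC replicate 2 and below Sox2ot in Baf45d replicate 2, so these steps too lay within the spread. By deposited FPKM, Neat1 was from 109 to 259 times lower than its neighbour Malat1, the widest ratio being that of Baf45d replicate 2. This divides the counts of Neat1 by 20771 bases, although shorter ones are among its 4 annotated transcripts. Reads from shorter transcripts would make its level per length higher than given, and their share was not measured.

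**Figure D1:**
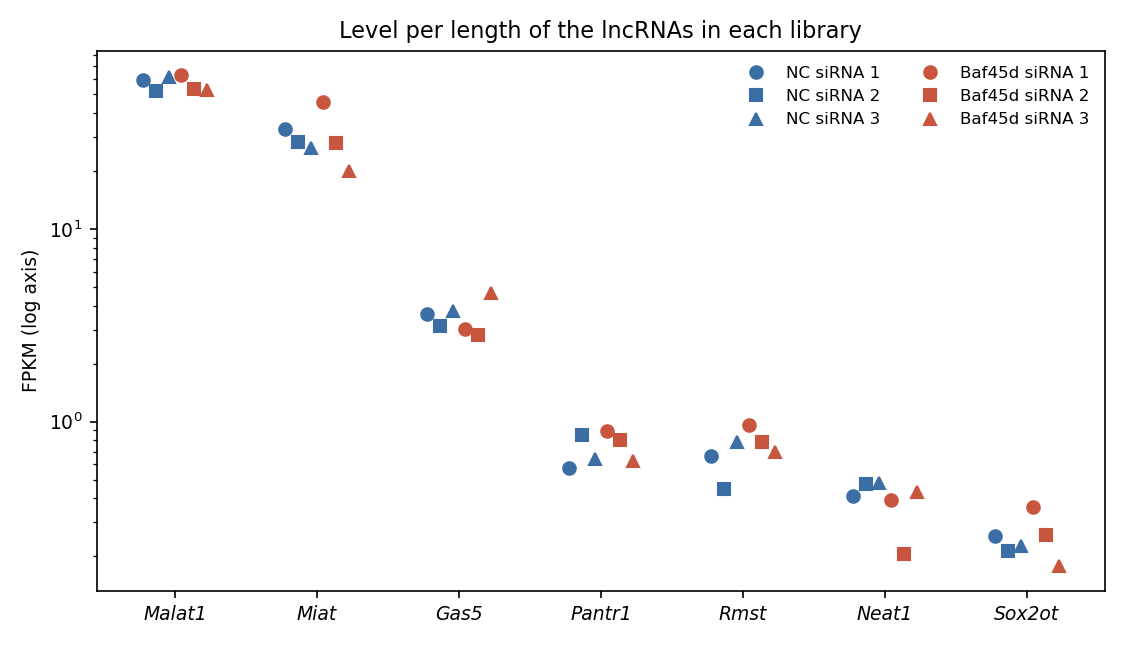
Deposited FPKM (log axis) of each of the 7 lncRNAs in each of the 6 libraries, blue for NC siRNA and red for Baf45d siRNA, with the marker shape giving the replicate number. Malat1, at 51.7 to 62.6 FPKM, and Miat, at up to 45.4 FPKM, stand above the other 5 in every library.

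The order of the low RNAs also depended on the length used. The deposited FPKM divide by the union of all annotated exons, which for Sox2ot is 11594 bases, 3.33 times its longest transcript, and for Rmst 7423 bases, 2.57 times. Divided by the longest transcript, the same counts gave 1.86 FPKM for Rmst, 1.56 for Pantr1 and 0.827 for Sox2ot, while Neat1 stayed at 0.400 and became the lowest of the 7. This second scale was added after the values were seen, and it too takes no account of shorter transcripts, such as those of Neat1. Among 9680 genes of lncRNA biotypes, of which 5228 had counts, Malat1 ranked from 6 to 7 by FPKM over the libraries and Miat from 8 to 28. Gas5 ranked from 106 to 200, Pantr1 from 693 to 934, Rmst from 641 to 1111, Neat1 from 1031 to 1679 and Sox2ot from 1332 to 1765. By raw count, which favours long RNAs, Malat1 ranked from 1 to 3, and Malat1 and Miat together held from 93.8% to 96.1% of the counts of the 7.

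**Figure D2:**
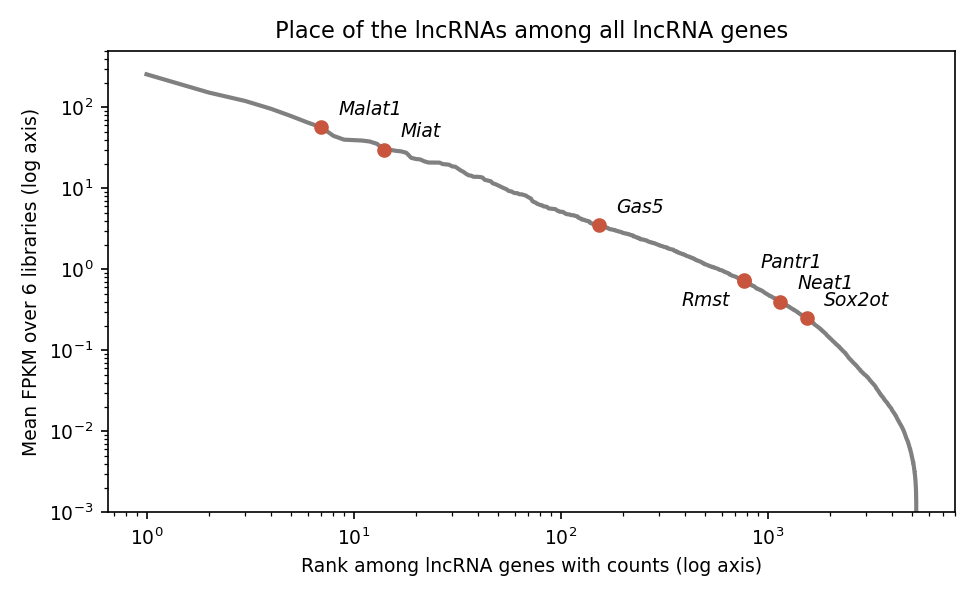
Mean FPKM over the 6 libraries (log axis) against rank (log axis) for all lncRNA genes with counts, as a grey line, with the 7 described lncRNAs as red points. Malat1 and Miat lie at the top of the curve at 56.8 and 30.1 FPKM, Gas5 at 3.50 FPKM, and the other 4 below 1 FPKM.

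The question put to the members was whether any differed between cells given Baf45d siRNA and cells given NC siRNA. None of the 7 passed an adjusted p of 0.05, and 0% of all 16078 genes did, with adjusted p from 0.996 to 0.999 for the members (edgeR quasi-likelihood test, Benjamini-Hochberg). An unadjusted p under 0.05 was reached by 459 genes, 2.85%, and again by 0 of the 7. DESeq2, limma-voom and the authors' deposited table likewise called no gene. The 3 NC and the 3 Baf45d libraries overlapped for every member, whereas they did not overlap for 8.04% of all genes tested. Of the 7 fold changes 5 were positive and 2 negative, with a median of 0.09 on the log2 scale, beside 8352 positive and 7726 negative with a median of 0.01 over all genes tested. The authors' deposited table gave log2 fold changes of 0.37 for Rmst, 0.20 for Sox2ot, 0.17 for Pantr1, 0.09 for Miat, -0.03 for Malat1, -0.41 for Neat1 and 0.00 for Gas5.

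Other settings left the members uncalled. Without a filter on low counts 0.0335% of genes passed the adjusted threshold and 0 of the 7 did, while 3.85% of genes and 1 of the 7, Neat1, reached an unadjusted p under 0.05. With the replicate number as a block 0.00622% of genes passed. Without Baf45d replicate 3, 0.269% of genes passed and 13.3% reached an unadjusted p under 0.05, among them Neat1. Without both libraries numbered 3, 0.124% passed and 10.6% reached an unadjusted p under 0.05, among them Rmst. Groups that do not overlap are commoner with fewer libraries. Without Baf45d replicate 3 they numbered 4 of the 7 (Rmst and Sox2ot higher, Neat1 and Gas5 lower) beside 30.9% of genes, and without both libraries numbered 3 again 4 of the 7 beside 41.6%. Without NC replicate 1 the count was 1 (Neat1) beside 13%, and without NC replicate 3 it was 1 (Rmst) beside 17.8%.

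**Figure D3:**
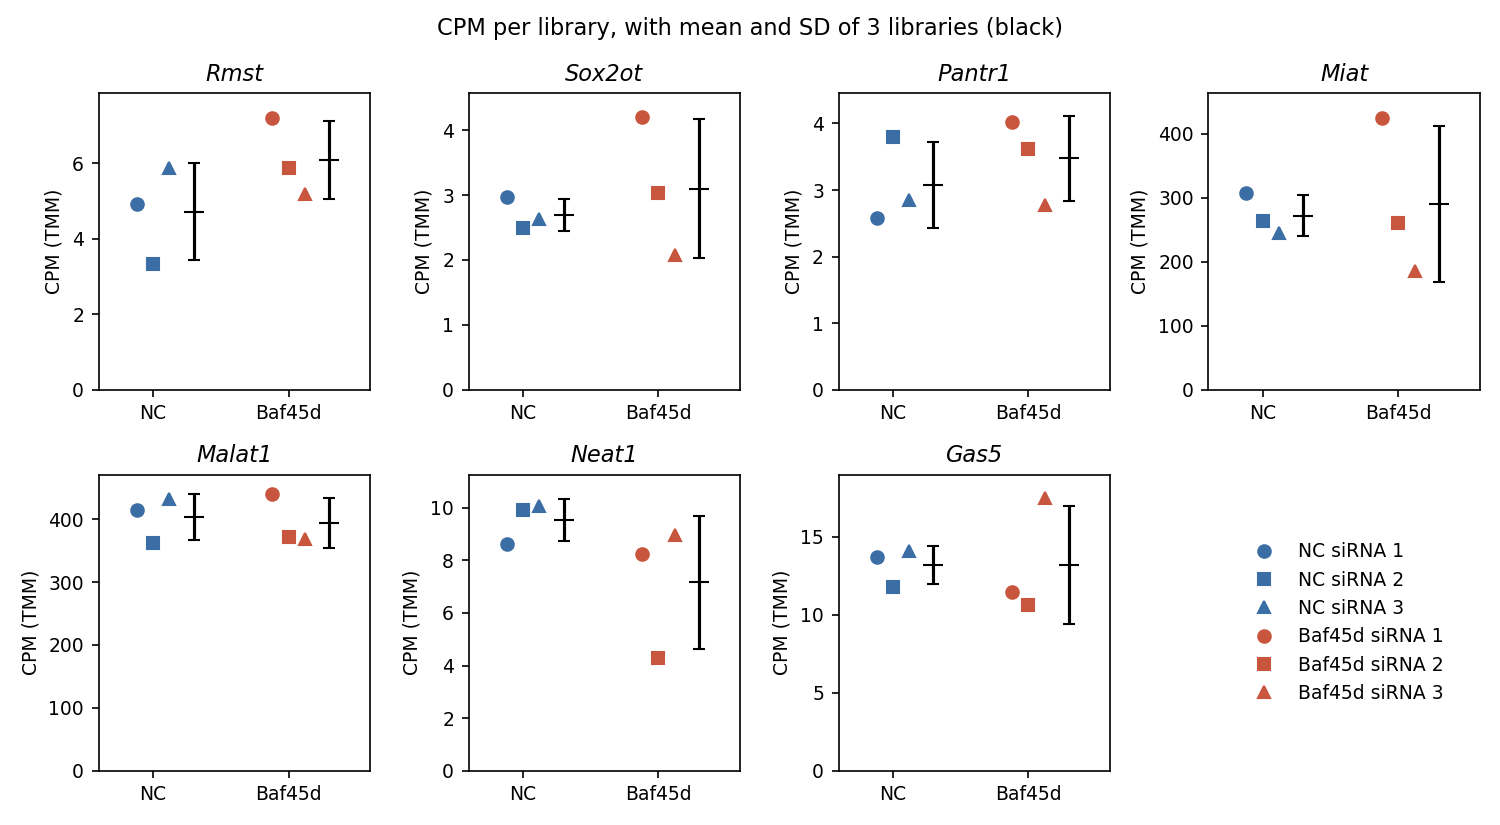
TMM-scaled CPM of each lncRNA (linear axes from 0) in the 3 NC and 3 Baf45d libraries, with the mean and SD of each group in black. The groups overlap in all 7 panels, and the Baf45d libraries of Miat range from 186 to 424 CPM.

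Of the RNAs tied to SOX2, Rmst (ENSMUSG00000112117) had 88, 71 and 105 counts in NC replicates 1 to 3 and 127, 99 and 95 counts in Baf45d replicates 1 to 3. In CPM these were 4.93, 3.33 and 5.88 against 7.20, 5.88 and 5.17. Baf45d replicate 1 was the highest library and NC replicate 2 the lowest, and the other 4 lay close together. The means were 4.71 ± 1.29 CPM (SD, n = 3) and 6.09 ± 1.03 CPM (SD, n = 3). On the log2 scale the fold change was 0.37 (SE 0.24, 95% interval -0.16 to 0.91), the most positive of the 7. The interval reaches from 0.896-fold to 1.88-fold. Its sign held under all 17 alternatives run, at between 0.16 and 0.68.

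Within the Rmst interval lies a short annotated RNA, Gm27544, that had more counts than Rmst itself in every library. It is a 155-base miscellaneous RNA on the same strand, and 50 of its bases fall in an annotated Rmst exon. It is shown with those bases in capitals, since counts there cannot be given to 1 gene with certainty.
Gm27544, chr10:92071661-92071815, minus strand: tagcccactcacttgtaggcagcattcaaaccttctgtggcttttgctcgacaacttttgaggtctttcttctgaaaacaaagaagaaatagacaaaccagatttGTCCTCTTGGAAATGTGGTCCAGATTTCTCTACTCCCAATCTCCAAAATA
Gm27544 had 124, 121 and 127 counts with NC siRNA and 168, 139 and 99 with Baf45d siRNA. Baf45d replicate 1 was again the highest, but replicate 3 was the lowest of all 6. The log2 fold change was 0.23 (SE 0.22). When the counts of both genes were added, which was chosen after the data were seen, the locus stood at 11.3 ± 2.05 CPM (SD, n = 3) in the NC group and 13.8 ± 3.10 CPM (SD, n = 3) in the Baf45d group, a log2 fold change of 0.29 (SE 0.20) that did not pass (edgeR, Benjamini-Hochberg adjusted p = 0.996).

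The locus also hosts a pair of microRNAs, here with their RefSeq mature sequences on GRCm38.p6 and the seed, bases 2 to 8, in capitals to show that the seeds differ.
mmu-miR-135a-5p, chr10:92072141-92072163, minus strand: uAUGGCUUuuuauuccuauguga
mmu-miR-1251-5p, chr10:92137190-92137210, minus strand: aCUCUAGCugccaaaggcgcu
Mir135a-2 had 4 counts over all 6 libraries and Mir1251 had 0, so neither could be compared. The counts measure reads over the precursor genes in libraries that the labels do not describe as small RNA libraries.

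Sox2ot (ENSMUSG00000105265) had the lowest mean deposited FPKM of the 7, though not with the longest transcript as length nor in Baf45d replicate 2, where Neat1 was lower. It had 53, 53 and 47 counts with NC siRNA and 74, 51 and 38 counts with Baf45d siRNA. Scaled to CPM, these were 2.97, 2.49 and 2.63 against 4.20, 3.03 and 2.07. The Baf45d libraries held both the highest and the lowest value, on either side of all 3 NC libraries. At this depth the 38 counts of Baf45d replicate 3 alone have an exact 95% binomial interval from 1.45 to 2.82 on the unscaled CPM scale, which covers counting error only. The means were 2.70 ± 0.25 CPM (SD, n = 3) and 3.10 ± 1.07 CPM (SD, n = 3), with a log2 fold change of 0.20 (SE 0.28, 95% interval -0.42 to 0.82). Without Baf45d replicate 1 it was -0.08.

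Sox2 itself, which lies inside Sox2ot on the same strand (chr3:34650405-34652461), was far more abundant, at 51.6 ± 1.82 FPKM (SD, n = 3) in the NC group and 58.5 ± 12.5 FPKM (SD, n = 3) in the Baf45d group. Its CPM were 111, 106 and 103 with NC siRNA and 147, 122 and 94.7 with Baf45d siRNA. As for Sox2ot, Baf45d replicate 1 was the highest and Baf45d replicate 3 the lowest. The log2 fold change of Sox2 was 0.18 (SE 0.14) and did not pass. Of 14 annotated genes that overlap Sox2ot, 6 lie on the opposite strand. Apart from Sox2 the only one tested was Gm42693, which lies on the opposite strand and stood at 0.461 ± 0.290 CPM (SD, n = 3) and 0.552 ± 0.110 CPM (SD, n = 3).

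Pantr1 (ENSMUSG00000060424) had 46, 81 and 51 counts with NC siRNA and 71, 61 and 51 counts with Baf45d siRNA. The CPM were 2.58, 3.80 and 2.85 against 4.03, 3.62 and 2.78. NC replicate 2 fell among the Baf45d libraries and Baf45d replicate 3 among the NC libraries. The means were 3.08 ± 0.64 CPM (SD, n = 3) and 3.48 ± 0.64 CPM (SD, n = 3), with a log2 fold change of 0.17 (SE 0.24, 95% interval -0.37 to 0.71). Pou3f3, 925 bases away, stood at 25.2 ± 3.42 CPM (SD, n = 3) and 27.2 ± 4.15 CPM (SD, n = 3), a log2 fold change of 0.11 (SE 0.14) that did not pass. Pantr2, another lncRNA named for its place beside Pou3f3, was low, at 0.707 ± 0.089 CPM (SD, n = 3) and 0.473 ± 0.082 CPM (SD, n = 3). Its Baf45d libraries were all below its NC libraries, as for 4.3% of genes, and its log2 fold change of -0.57 (SE 0.38) did not pass.

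Miat (ENSMUSG00000097767), the RNA with the ACTAAC repeats shown above, was the most variable of the 7 within a group. It had 5504, 5612 and 4381 counts with NC siRNA and 7480, 4378 and 3421 counts with Baf45d siRNA. In CPM these were 308, 263 and 245 against 424, 260.0 and 186. The highest and the lowest library were both Baf45d libraries, replicates 1 and 3, while the NC libraries stayed together between them. The coefficient of variation was 11.9% in the NC group and 42.0% in the Baf45d group, at counts of 3421 or more, where counting error is small. The biological coefficient of variation that edgeR estimated was 0.236, at the 99.4th percentile of the 501 genes nearest in mean level, whose median was 0.0858. With means of 272 ± 32.4 CPM (SD, n = 3) and 290.2 ± 122 CPM (SD, n = 3) its log2 fold change came to 0.09 (SE 0.27, 95% interval -0.55 to 0.74). It was -0.29 without Baf45d replicate 1 and 0.33 without Baf45d replicate 3, so the sign rested on single libraries. Gm26953, a lncRNA gene on the opposite strand that overlaps Miat, had at most 48 counts in a library.

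Malat1 (ENSMUSG00000092341) was the steadiest of the 7 over all libraries and the best measured. It had 7417, 7728 and 7716 counts with NC siRNA and 7758, 6270 and 6782 counts with Baf45d siRNA. After scaling they came to 415, 363 and 432 against 440.1, 372 and 369. NC replicate 2 was the lowest and Baf45d replicate 1 the highest, and the full span was 1.21-fold. The biological coefficient of variation was 0.0958, at the 70.7th percentile of the 501 genes nearest in mean level, whose median was 0.0861. The means were 403 ± 36.0 CPM (SD, n = 3) and 394 ± 40.0 CPM (SD, n = 3). On the log2 scale the fold change was -0.03 (SE 0.10), and its 95% interval of 0.840-fold to 1.14-fold was the narrowest of the 7.

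Neat1 (ENSMUSG00000092274) had 154, 211 and 180 counts with NC siRNA and 145, 72 and 165 counts with Baf45d siRNA. As CPM these were 8.62, 9.90 and 10.1 against 8.23, 4.28 and 8.98. Baf45d replicate 2 stood well below the other 5 libraries, and Baf45d replicate 3 lay above NC replicate 1. The means were 9.53 ± 0.79 CPM (SD, n = 3) and 7.16 ± 2.53 CPM (SD, n = 3), with a log2 fold change of -0.41 (SE 0.25, 95% interval -0.96 to 0.14), or 0.753-fold (0.515 to 1.10). Each Baf45d library was below the NC library of the same number, in 3 of 3 pairs, a pairing read from the data alone. The share of all genes that do so was not computed, so this count has no background here. It is also the most one-sided of the 7 members, since the pairs of every other member ran both ways. With the replicate number as a block the log2 fold change was -0.45 and Neat1 reached an unadjusted p under 0.05, as did 7.75% of all genes, but not the adjusted threshold (edgeR, Benjamini-Hochberg adjusted p = 0.638). Over all 16 alternatives its adjusted p was 0.305 or higher. Leaving out Baf45d replicate 2 brought the log2 fold change to -0.14. That library also had the highest mitochondrial share, 2.54%, whose part in the value was not tested.

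Frmd8, the gene nearest to Neat1, ran the same way in that library. It stood at 69.3, 73.2 and 73.1 CPM for NC replicates 1 to 3 against 61.7, 49.2 and 72.0 CPM for Baf45d replicates 1 to 3. The log2 fold change came to -0.24 (SE 0.13) and did not pass. Baf45d replicate 2 was the lowest of the 6, as for Neat1. That library was also the lowest for genes on other chromosomes, such as Josd1 (chromosome 15) and Sft2d1 (chromosome 17). The share of all genes lowest in it was not computed. The siRNA target Dpf2 lies on the same strand of chromosome 19, with 51.0 kb between it and Neat1.

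The mRNAs of the proteins that Neat1 and Malat1 gather with were tested, and none passed. All values here are of mRNA, and protein was not measured. Of 20 paraspeckle proteins 12 had positive and 8 negative fold changes, with a median of 0.01 on the log2 scale. Nono, a core paraspeckle protein, stood at 735 ± 24.6 CPM (SD, n = 3) and 794 ± 59.7 CPM (SD, n = 3). Smarca4, the ATPase of the BAF complex and also a paraspeckle component, stood at 468 ± 27.2 CPM (SD, n = 3) and 497 ± 5.64 CPM (SD, n = 3), with all 3 Baf45d libraries above all NC libraries, as for 3.74% of genes. Of 22 nuclear speckle and splicing proteins 14 were positive and 8 negative, with a median of 0.02. Son and Srrm2, which build the core of speckles, had log2 fold changes of 0.13 (SE 0.08) and 0.13 (SE 0.08). These medians stand beside 0.01 over all genes tested.

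Malat1 and the long form of Neat1 end in the triple helix shown above and not in a poly(A) tail, so how RNA was enriched bears on their counts, and the sources used here do not give it. Of 15 indicator RNAs without a poly(A) tail, such as histone mRNAs, 5 (Rny3, Rpph1, Rn7s1, Rn7s2 and Rmrp) were at 0 in all libraries. The whole list summed to between 3.38 and 5.60 CPM with NC siRNA and between 2.99 and 4.43 CPM with Baf45d siRNA. Rn7sk stood at 1.95 ± 0.59 CPM (SD, n = 3) and 1.75 ± 0.45 CPM (SD, n = 3), and Terc at 0.906 ± 0.441 CPM (SD, n = 3) and 0.797 ± 0.164 CPM (SD, n = 3), with overlapping groups. Their part in the levels of Malat1 and Neat1 was not tested.

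Gas5 (ENSMUSG00000053332) had 245, 251 and 252 counts with NC siRNA and 202, 179 and 322 counts with Baf45d siRNA. Scaled to CPM, they came to 13.7, 11.8 and 14.1 against 11.5, 10.6 and 17.5. Baf45d replicates 1 and 2 were the lowest of the 6 and Baf45d replicate 3 the highest, whereas Miat was highest in Baf45d replicate 1 and lowest in Baf45d replicate 3. The means were 13.2 ± 1.24 CPM (SD, n = 3) and 13.2 ± 3.76 CPM (SD, n = 3), with a log2 fold change of 0.00 (SE 0.19, 95% interval -0.43 to 0.43). Without Baf45d replicate 3 it was -0.25. All 10 annotated snoRNA genes inside Gas5 had 0 counts in every library, so the values of Gas5 say nothing of its snoRNAs. The same held for all 22 small RNA genes that lie wholly inside exons of the 7 lncRNAs. Of the 10 that reach outside them 3 had 783 counts in all, but 778 of these were from Gm27544, so the difference rests on that gene. Some of the 10, such as Gm27366, reach outside by 1 base only. How reads in shared exons were assigned is not given in the sources used here. Zbtb37, a protein-coding gene on the opposite strand that overlaps the start of the Gas5 interval, stood at 44.6 ± 6.29 CPM (SD, n = 3) and 49.0 ± 4.88 CPM (SD, n = 3), and reads in the shared stretch cannot be told apart without strand.

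The other snoRNA host lncRNAs had mostly negative fold changes. Of 14 tested, 11 had negative and 3 positive fold changes, with a median of -0.09 on the log2 scale, and none passed. Zfas1 stood at 40.7 ± 1.65 CPM (SD, n = 3) and 34.7 ± 5.25 CPM (SD, n = 3), and Snhg15 at 7.44 ± 0.35 CPM (SD, n = 3) and 5.83 ± 2.12 CPM (SD, n = 3). The mean deviation of the list, in log2 CPM from each gene's mean, was 0.04, 0.04 and 0.05 with NC siRNA and -0.04, -0.06 and -0.04 with Baf45d siRNA. The groups of this mean did not overlap, while the summed CPM of the list did, at 351 to 368 against 325 to 357. How often the mean of a list of like size does not overlap was not computed. Of 15 nonsense-mediated decay factors, the machinery that degrades Gas5, 8 were positive and 7 negative, with a median of 0.02. Magoh, a part of the exon junction complex, had a log2 fold change of 0.16 (SE 0.10), and none of the 15 passed.

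Among other lncRNAs of neural cells, 13 of 22 listed were tested, 6 with positive and 7 with negative fold changes and a median of 0.00 on the log2 scale. None passed. Tug1, a nuclear lncRNA of retina and brain, stood at 254, 262 and 248 CPM for NC replicates 1 to 3 against 265, 314 and 274 CPM for Baf45d replicates 1 to 3. All 3 Baf45d libraries were higher, as for 3.74% of genes, and the log2 fold change was 0.16 (SE 0.08). Of 16 other nuclear or widely expressed lncRNAs 10 were tested, 7 positive and 3 negative, with a median of 0.06. Hotairm1, a retinoic acid-inducible lncRNA of the Hoxa cluster, stood at 44.9 ± 6.56 CPM (SD, n = 3) and 35.6 ± 5.02 CPM (SD, n = 3), a log2 fold change of -0.34 (SE 0.14) that did not pass. Bvht, a cardiac lncRNA, stood at 1.38 ± 0.23 CPM (SD, n = 3) and 0.882 ± 0.282 CPM (SD, n = 3). Over all 1180 lncRNA genes tested, 604 were positive and 576 negative, 2.12% had an unadjusted p under 0.05, and the groups did not overlap for 7.2%.

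Of 5 transcription factors known as partners or neighbours of these RNAs, none passed. Rest, the repressor of neuronal genes that is known to hold down human RMST, stood at 131, 144 and 139 CPM for NC replicates 1 to 3 against 125, 116 and 118 CPM for Baf45d replicates 1 to 3. All 3 Baf45d libraries were lower, as for 4.3% of genes tested. The log2 fold change was -0.20 (SE 0.08), with an adjusted p of 0.996 in edgeR's quasi-likelihood test with Benjamini-Hochberg adjustment. Rest, the only 1 of the 5 to do so, reached an unadjusted p under 0.05, as did 2.85% of genes.

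**Figure D4:**
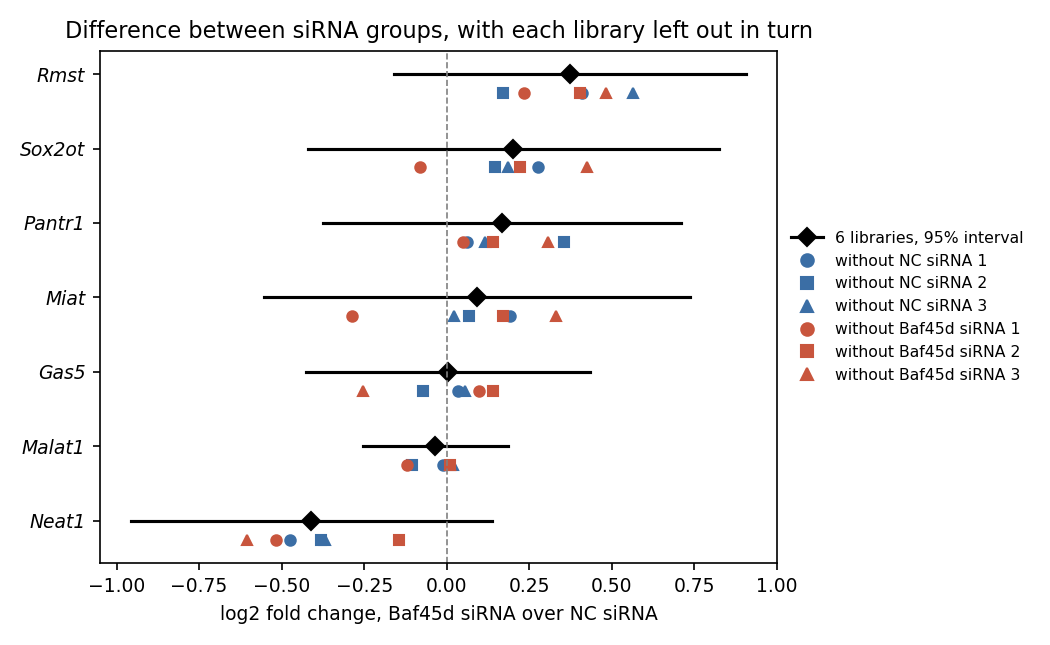
Log2 fold change, Baf45d siRNA over NC siRNA, of each lncRNA, with the estimate from 6 libraries and its 95% interval in black and the estimate without each library in turn as coloured markers. All 7 intervals include 0, and Miat moves from -0.29 without Baf45d replicate 1 to 0.33 without Baf45d replicate 3.

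The RNAs differed from each other in which library stood out. Sox2ot and Miat moved together over the 6 libraries, with a Pearson correlation of log2 CPM of 0.95, the highest of the 21 pairs. Both were highest in Baf45d replicate 1, by 0.55 and 0.64 above their means on the log2 scale, and lowest in Baf45d replicate 3, by -0.43 and -0.55. Gas5 ran against Pantr1 (-0.78), Sox2ot (-0.68) and Miat (-0.64). The neighbours Malat1 and Neat1 gave 0.27. These are descriptions over 6 libraries that share their scaling and depth, in counts as low as 38 for Sox2ot.

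The markers of neurons moved with the same libraries. The mean deviation of the 12 neuron markers was 0.29 in Baf45d replicate 1, 0.19 in replicate 2 and -0.25 in replicate 3, and from -0.13 to -0.04 in the NC libraries. Its correlation over the 6 libraries was 0.93 with Sox2ot, 0.80 with Miat, 0.66 with Rmst, 0.63 with Pantr1, 0.46 with Malat1, -0.58 with Neat1 and -0.78 with Gas5. Rmst ran closest to the neural progenitor markers, at 0.94, the highest of all correlations computed between a member and a list. Values of like size arose elsewhere, such as -0.90 for Pantr1 with the pluripotency markers. The summed neuron markers were 1065, 980.3 and 998 CPM with NC siRNA and 1375, 1245 and 903 CPM with Baf45d siRNA, and overlapped between the groups. Of the 12 markers 11 had positive fold changes, with a median of 0.21, beside 51.9% positive over all genes tested. An unadjusted p under 0.05 in edgeR was reached by 3 of the 12, all positive, beside 2.85% of all genes. None of the 12 passed the adjusted threshold. In bulk RNA, fewer cells of a type and less RNA per cell cannot be told apart, and the part of cell makeup in the values of the lncRNAs was not tested.

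**Figure D5:**
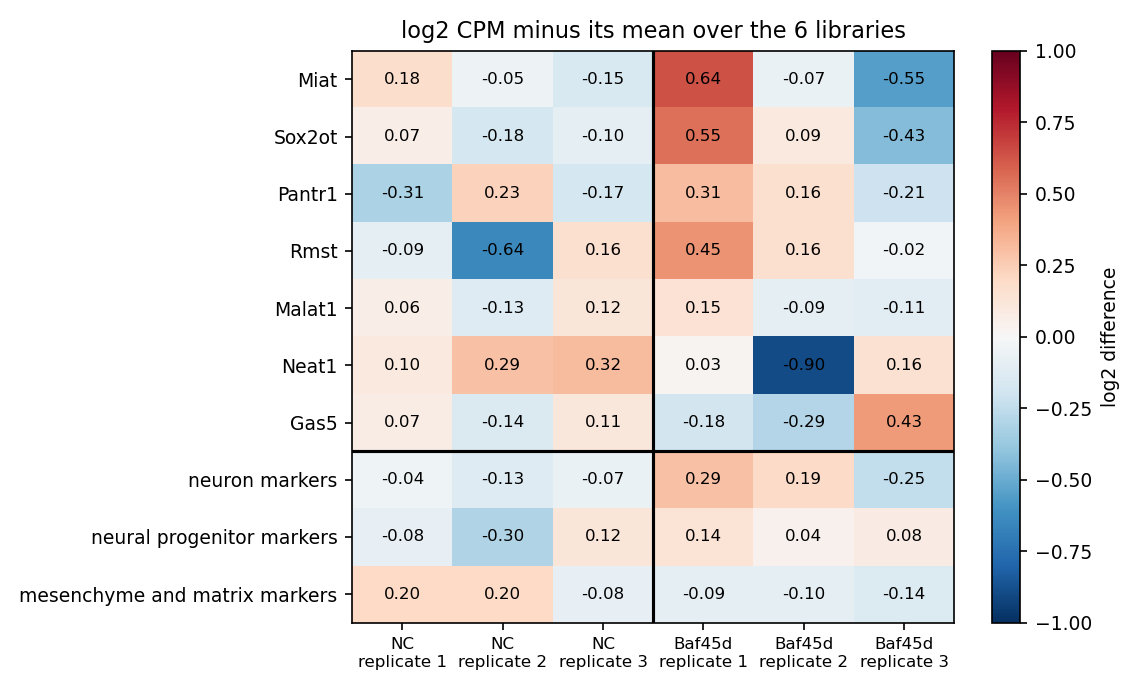
Log2 CPM of each lncRNA minus its mean over the 6 libraries (colour and printed value), with the mean deviation of 3 marker lists below. Miat, Sox2ot and the neuron markers are highest in Baf45d replicate 1 and lowest in Baf45d replicate 3, Gas5 is highest in Baf45d replicate 3, and Neat1 is lowest in Baf45d replicate 2 at -0.90.

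Among the genes of at least 5 CPM, 11711 or 11712 per RNA, those most like each member over the 6 libraries were protein-coding. Miat was followed most closely by Hoxb6 and Bcor, with Pearson correlations of 0.998 and 0.997. Hoxb6, a homeobox gene, stood at 395, 365 and 347 CPM for NC replicates 1 to 3 against 451, 358 and 306 CPM for Baf45d replicates 1 to 3, the same order of libraries as Miat over a narrower range. Sox2ot was followed by Rab3d (0.997) and Kif5a (0.996), Neat1 by Josd1 (0.997) and Sft2d1 (0.992), and Gas5 by Urm1 (0.995) and Uqcrb (0.989). Rmst was followed by Atxn7l2 (0.988) and Ice1 (0.987), Pantr1 by Fam222b (0.987) and Cbl (0.979), and Malat1 by Mto1 (0.988) and Ccdc85c (0.986). Genes with a correlation over 0.95 numbered 173 for Sox2ot, 166 for Miat, 152 for Neat1 and 80 for Gas5, but 19 for Rmst and 14 each for Pantr1 and Malat1. These values describe libraries in like order and nothing more.

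The genes nearest to the other members that are given here did not pass. Nedd1, Tmpo, Atp11b and Rc3h1 had log2 fold changes from -0.01 to 0.11, and Dnajc19, beside Sox2ot, had 0.08 (SE 0.15). Crybb1 and E130006D01Rik on either side of Miat, and Mfsd9 and Gm20646 on either side of Pantr1, were low, at 0.607 to 3.32 CPM in the group means.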

How the data were processed

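RNA of 6 P19 samples was measured, 3 per siRNA group. The authors deposited 1 table of 54532 Ensembl genes with a raw count per gene and library and an FPKM, per the file headers. The FPKM equalled counts over gene length times a factor per library in 100% of genes of at least 10 counts (relative tolerance 0.001). The table also holds a signal, the authors' mean normalized count per group, and the authors' log2 fold change, p-value and adjusted p-value. The submitters' processing notes name DESeq2 1.16.1 and the build mm9. However, 98.3% of 54409 genes had the start and end of GENCODE M21, so coordinates are given as GRCm38. The kit is named without strand, and its enrichment, the aligner and the counter were not given in the sources used here.

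Gene counts were fitted with edgeR 4.0.16 in R 4.3.3 (filterByExpr defaults, 16078 genes kept, TMM, robust quasi-likelihood F test on group, two-sided, Benjamini-Hochberg over all genes, threshold 0.05). Correlations used log2 CPM with a prior count of 2. The procedure was tested on simulated data. The 7 lncRNAs and all lists were chosen with earlier results of these data known. Named genes are the 7, Dpf2, Sox2, Pou3f3, members of each other list past the threshold or else the 2 with the smallest p, the 2 genes most like each member, and tested genes beside or overlapping a member. Some genes that this rule names are not reported here. Marker lists are given as summed CPM and as mean deviations of log2 CPM. Of the listed symbols 1 neural, 1 nuclear and 2 snoRNA host names had no match.

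Same-numbered libraries deviated together from their group means (r = 0.17, 0.13 and 0.35, other pairs -0.24 to 0.12), so the numbers were taken to pair the samples, from the data alone, and the replicate block was an alternative fit. Replicates differed beyond sampling noise (chi-square per degree of freedom 3.24 to 21.9). Other alternatives were scaling by RLE or library totals, other filters, DESeq2 1.42.0, limma 3.58.1 (voom and log2 FPKM), and libraries left out. No sequence was read from a genome, and figures were drawn with matplotlib 3.10.9.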

Additional observations from a re-analysis of the deposited data

How the results depend on the processing

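No member passed an adjusted p of 0.05 under any alternative run, with adjusted p of 0.305 or higher. Rmst, Pantr1 and Neat1 kept their sign throughout. Leaving out each library in turn gave log2 fold changes from -0.25 to 0.14 for Gas5, from -0.12 to 0.018 for Malat1, from -0.082 to 0.43 for Sox2ot, from -0.29 to 0.33 for Miat, from -0.018 to 0.23 for Pou3f3, from -0.37 to 0.084 for Rn7sk and from -0.52 to 0.18 for Terc. Gas5, at 0.00 in the main comparison, was at -0.011 with library totals alone, -0.0019 with no filter on low counts, -0.017 with limma-voom, -0.019 on log2(FPKM + 1), -0.029 on log2(FPKM + 0.1), and -0.023 with the replicate block. Without both libraries numbered 3, the log2 fold change was -0.20 for Gas5, 0.068 for Malat1, 0.26 for Rn7sk and 0.17 for Terc.

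Of the 7 members, 1 reached an unadjusted p under 0.05 with no filter (Neat1), with the replicate block (Neat1), without both libraries numbered 3 (Rmst, log2 fold change 0.68) and without Baf45d replicate 3 (Neat1, -0.61). Leaving out 1 library gave 0 to 1. Over all genes, 10 passed the adjusted threshold with no filter, 1 with the replicate block, 20 without both libraries numbered 3, and 0 to 44 with 1 library left out, the 44 without Baf45d replicate 3. The replicate block changed no other call of a member. Groups did not overlap for 4 members without both libraries numbered 3. With 1 library left out the count ran from 0 to 4. Fewer libraries overlap less by construction, and otherwise the cause was not tested. Depth limits Sox2ot, Pantr1 and Rmst most, with 38 to 127 counts per library.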
